A study of Mus musculus with 18 samples.

Results

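The genes of the MYC family and its closest partners were followed through 18 mouse mammary tumors. They were Myc, Mycn and Mycl, the shared partner Max, and the repressors Mxd1, Mxi1 and Mnt. These 7 genes were chosen by name from the 57126 genes of the count table, with earlier results of these data known. RNA was sequenced from 7 MaPR172H/- tumors, 5 MaPR245W/- tumors and 6 MaP-/- tumors. In MaPR172H/- tumors the recombined cells carried 1 Trp53 allele with the missense mutation R172H and no second allele, in MaPR245W/- tumors the mutation R245W and no second allele, and in MaP-/- tumors no functional allele. The mice were female offspring of BALB/c and C57BL6/J parents, and adenovirus carrying Cre recombinase was delivered into their mammary ducts in young adulthood. Recombination was confined to ductal epithelial cells, so stromal and immune cells in every tumor kept wild-type Trp53. The mice YZ2, YZ6, YZ10, JM1233, JM1564 and RM0014 also carried Rosa26LSL-TdTomato/+, an allele that switches on a red fluorescent protein after Cre. The 6 MaP-/- tumors came from 4 mice, because JM663 and JM833 each gave 2 tumors.

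MYC, MYCN and MYCL are transcription factors that bind DNA only as a pair with MAX, at a short sequence known as the E-box, and raise the output of genes for ribosomes, growth and the cell cycle. MXD1, MXI1 and MNT pair with the same MAX protein, bind the same E-boxes and recruit corepressors, so that the family works as a balance between activating and repressing pairs. In mammary tissue MYC drives growth of the epithelium, and in breast cancer its gene is often amplified.

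Total counts per tumor were 23113578 to 27930163 in the MaPR172H/- group, 30030630 to 37365062 in the MaPR245W/- group and 24736337 to 32085794 in the MaP-/- group. The MaPR172H/- libraries were sequenced on another Illumina instrument (HiSeq) than all others (NovaSeq), so genotype and sequencing platform cannot be told apart in a comparison with MaPR172H/- tumors. The study also lists every MaPR172H/- tumor as a nonmetaplastic adenocarcinoma of luminal B or HER2-enriched subtype. All MaPR245W/- and MaP-/- tumors were listed as triple-negative, and most as metaplastic. Genotype and tumor subtype cannot be told apart in these comparisons either. Both comparisons with MaP-/- tumors share those tumors as controls. For JM779 and JM836 the labels and the study's tumor list name tumors of different sides, and results that depend on JM836-T1 and JM779-T1 are given without them as well. Markers of epithelial cells were detected in all 3 groups. Their summed level was lowest at 156.4 in JM779-T1, 377.7 in YZ7 and 487.6 in JM1233, against 1116 or more in each other tumor. Levels are given as CPM, counts scaled to the size of each library after TMM normalization. Because whole tumors were measured, fewer cells of a type and less RNA per cell cannot be told apart.

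The E-box is the sequence read by the pairs that the member proteins form with MAX. It was searched as the 6 letters CACGTG, which read the same on both strands. The windows searched were 300 bases of promoter, from 250 bases before to 50 bases after a gene's start (RefSeq, build GRCm38.p6). Of 32851 promoters, 2349 (7.15%) held it. Of the 8 promoters of the 6 members with an entry, 2 held it, those of Mnt and Max. Myc had no entry, so its promoter was not searched. Of 65 promoters of the 55 MYC target genes with an entry, 15 (23.1%) held it. The windows below show the E-box in capitals with 12 bases on each side. They give the 2 members, then genes of the wider network, then the target genes Ldha and Eif4a1. Among target genes called in a comparison, a match was found for these 2 only. Target genes without an entry were not searched. All windows read 5′ to 3′ on the strand of the gene.
Mnt, 123 bases before the start, promoter chr11:74830674-74830973, plus strand: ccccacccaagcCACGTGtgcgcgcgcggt
Max, 3 bases before the start, promoter chr12:76962199-76962498, minus strand: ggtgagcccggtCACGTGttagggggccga
Mxd4, 219 bases before the start, promoter chr5:34187661-34187960, minus strand: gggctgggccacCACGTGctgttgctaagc
Mlxipl, 98 bases before the start, promoter chr5:135089640-135089939, plus strand: gcggctgccatcCACGTGctaaggagagaa
Mlx, 40 bases before the start, promoter chr11:101087040-101087339, plus strand: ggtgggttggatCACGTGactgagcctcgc
Ldha, 145 bases before the start, promoter chr7:46845554-46845853, plus strand: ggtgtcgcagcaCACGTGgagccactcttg
Ldha, 48 bases before the start, same promoter: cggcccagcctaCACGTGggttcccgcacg
Eif4a1, 189 bases before the start, promoter chr11:69672374-69672673, minus strand: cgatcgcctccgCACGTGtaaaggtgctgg
The position of a gene's start differs between annotations, and the 50 bases after the start given for Max were not found in its GENCODE transcripts. A match describes these letters only, and binding was not measured.

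Myc was the most abundant of the 7 genes. Per kilobase of exon, the median level over the 18 tumors was 29.9 CPM for Myc, 12.5 for Max, 8.78 for Mxi1, 6.86 for Mxd1, 3.48 for Mnt, 0.488 for Mycl and 0.120 for Mycn. Max and Mxi1 overlapped over the tumors, with 8.36 to 16.1 CPM per kilobase for Max and 5.11 to 16.1 for Mxi1. Mxi1 and Mxd1 overlapped as well, since Mxd1 ran from 2.93 to 24.0 CPM per kilobase. Of the summed level of Myc, Mycn and Mycl per kilobase, Myc made up between 89.6% in YZ4 and 99.7% in JM1564. Mycl made up at most 9.40%, in YZ4, and Mycn at most 1.69%, in JM833-T1.

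**Figure D1:**
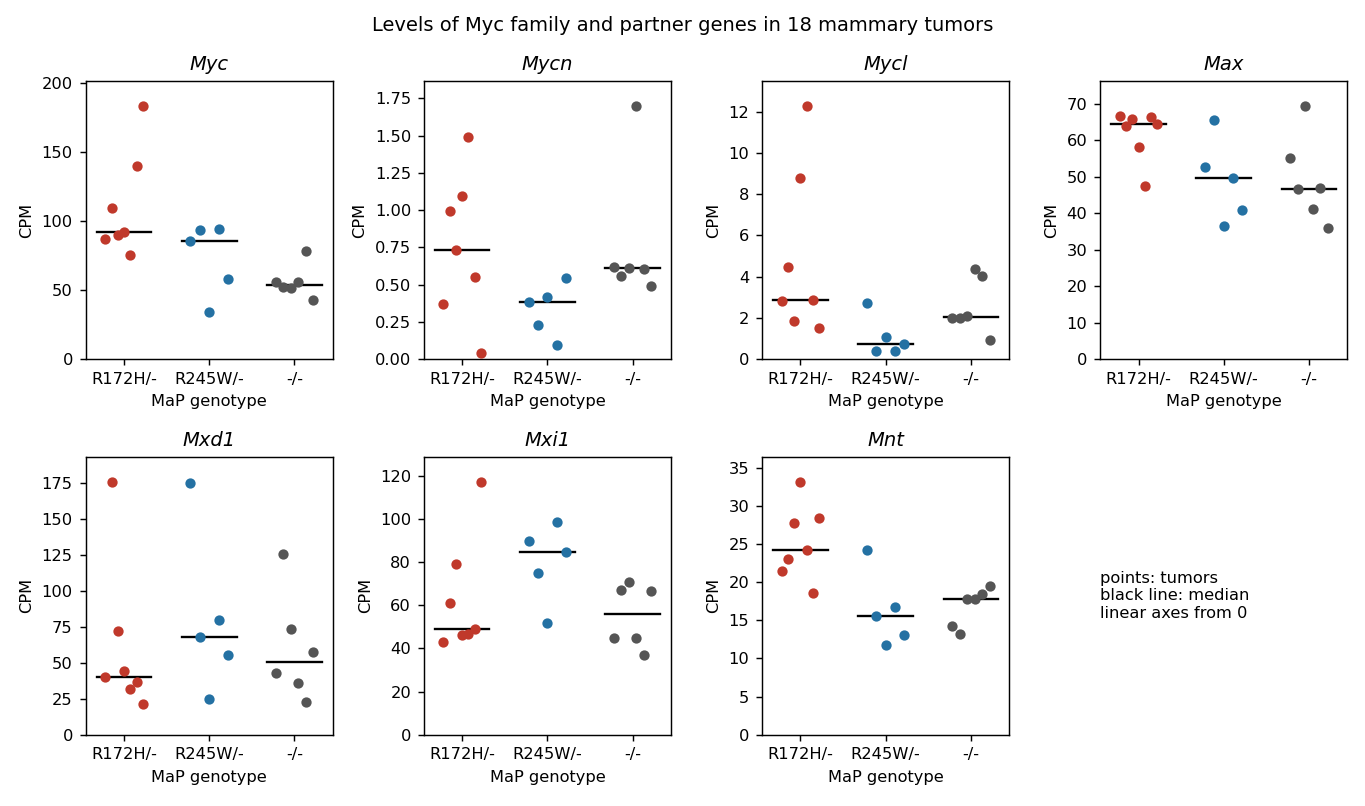
Level of each member in CPM (vertical axes, linear and starting at 0) in every tumor, by genotype (horizontal axis). Each point is 1 tumor, spread sideways only to be visible, and the black line is the group median. Myc in MaPR172H/- tumors runs from 75.7 to 183.1 CPM, and only the lowest of these tumors lies within the range of the MaP-/- tumors, 43.1 to 78.2 CPM.

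Myc (chromosome 15, 61857227 to 61862223, plus strand, build GRCm39) was higher in MaPR172H/- than in MaP-/- tumors. In MaPR172H/- tumors it was lowest at 75.7 CPM in YZ4, had a median of 91.8 and was highest at 183.1 in YZ7. In MaP-/- tumors it was lowest at 43.1 CPM in JM836-T1, had a median of 53.8 and was highest at 78.2 in JM833-T2. The groups overlapped, though 6 of the 7 MaPR172H/- tumors were above all MaP-/- tumors. The means were 111.0 ± 38.1 CPM (SD, n = 7) and 56.0 ± 11.8 CPM (SD, n = 6). The log2 fold change was 1.01 (SE 0.21, FDR = 0.0121, edgeR's quasi-likelihood test with Benjamini-Hochberg adjustment over 20954 genes). The call was kept when any 1 tumor was left out, with a log2 fold change between 0.84 and 1.11 and an FDR of at most 0.0314, and with the tumors of 1 mouse summed (1.08, FDR = 0.0306). Without JM836-T1 and JM779-T1 together the log2 fold change was 0.91 and the FDR 0.060, past the threshold of 0.05.

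Among MaPR245W/- tumors Myc was spread more widely. Its level was 34.1 CPM in JM1233, 58.0 in RM0014, 85.2 in JM1126, 93.3 in JM1133 and 94.4 in JM1564. JM1233 was thus below every MaP-/- tumor and 3 of these tumors were above all of them. The difference from MaP-/- tumors did not pass the test (log2 fold change 0.37, SE 0.26, FDR = 0.581, edgeR). The difference of MaPR172H/- from MaPR245W/- tumors did not pass it either (log2 fold change 0.60, SE 0.26, FDR = 0.156, edgeR).

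The tumors at either end of the Myc range also differed in their cell type markers. YZ7, with the highest Myc, had the lowest summed epithelial markers of its group, 377.7 CPM against a group median of 3801. JM1233, with the lowest Myc, had 487.6 CPM of epithelial markers, 1761 CPM of immune markers and 1060 CPM of skeletal muscle markers, the latter 2 being the highest of the 18 tumors. The part of these cell types in the level of Myc was not tested.

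Marker lists also moved between the groups in which Myc differed. Between MaPR172H/- and MaP-/- tumors, 9 of 9 epithelial markers had a log2 fold change above 0 and none passed the test, with a median of 1.38. Their sum was 377.7 to 10840 CPM in MaPR172H/- and 156.4 to 3005 CPM in MaP-/- tumors. Of all genes tested in this comparison, 4.73% were called as lower. Of 10 immune markers 3 fell, Adgre1, Itgam and Ptprc, and the sum was 357.5 to 468.8 CPM against 441.3 to 1272. Of 8 mesenchymal markers Lum and Pdgfra fell, with sums of 2610 to 7463 against 3960 to 8755 CPM, and of 5 endothelial markers Pecam1 fell, with sums of 154.4 to 244.2 against 222.1 to 430.8 CPM. None of 6 adipocyte markers passed the test, with sums of 8.35 to 482.4 against 25.03 to 4170 CPM, nor did any of 6 tested skeletal muscle markers, with sums of 2.15 to 17.7 against 2.45 to 5.61 CPM. No marker of these lists was at 0 in all tumors. Their part in the difference of Myc was not tested.

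**Figure D2:**
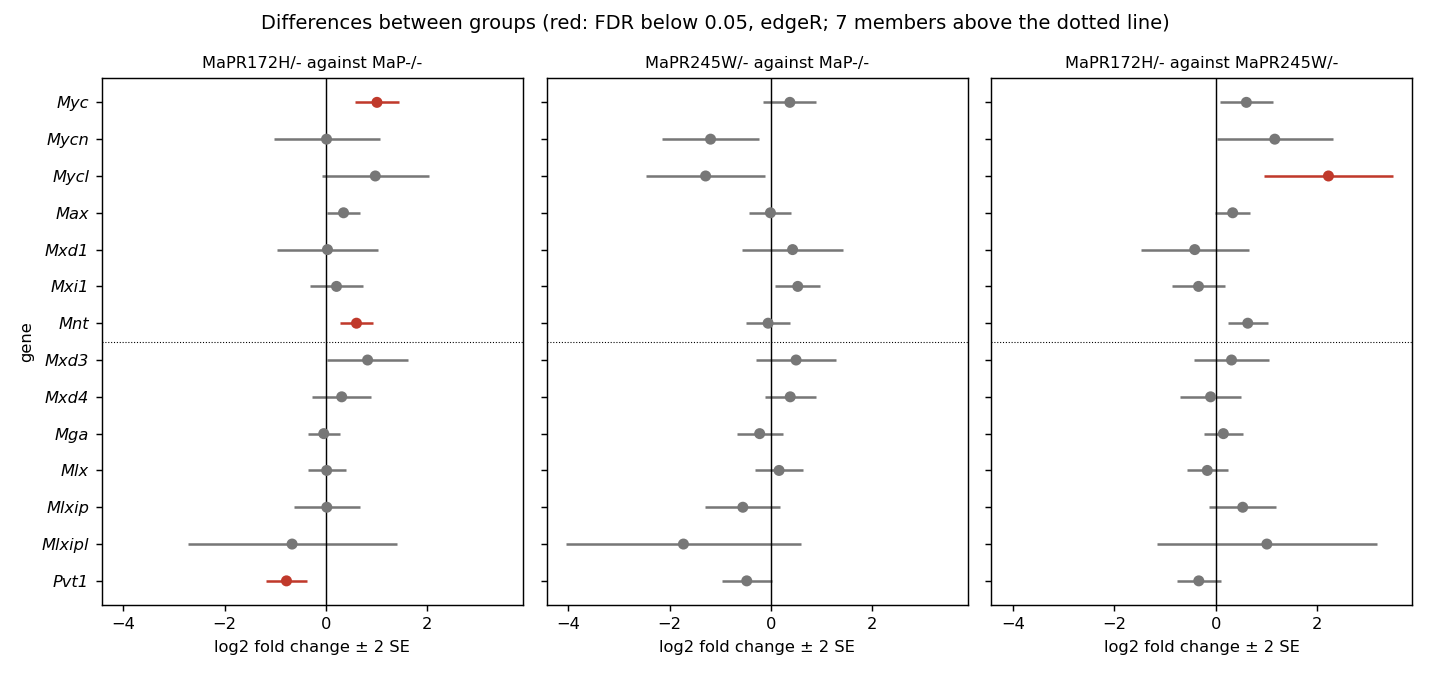
Log2 fold change (horizontal axes) with bars of 2 standard errors for the 7 members, 6 further genes of the network and Pvt1, in 3 comparisons. Red marks an FDR below 0.05 in edgeR. Myc and Mnt are red and above 0 and Pvt1 is red and below 0 in MaPR172H/- against MaP-/- tumors, Mycl is red in MaPR172H/- against MaPR245W/- tumors, and no gene is red in MaPR245W/- against MaP-/- tumors.

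Over the 7 members, 2 were called in MaPR172H/- against MaP-/- tumors, Myc and Mnt, and both were higher. Of all genes tested there, 8.4% were called, 3.67% as higher and 4.73% as lower. In MaPR245W/- against MaP-/- tumors edgeR called no member and 0 of 21452 genes (0%), although 2527 genes had an unadjusted p below 0.05 and DESeq2 called 424. Among the members, the unadjusted p was below 0.05 for Mycn, Mycl and Mxi1. In MaPR172H/- against MaPR245W/- tumors 1 member was called, Mycl, as higher, where 9.4% of 22481 genes were called, 2.91% as higher and 6.49% as lower. The median log2 fold change of all genes was 0.0027, 0.0195 and 0.0028 in the 3 comparisons.

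Pvt1 is a long noncoding RNA gene that lies downstream of Myc and is often amplified together with it. It starts 31412 bases from the start of Myc on the same strand (chromosome 15, 61888639 to 62249945). In MaPR172H/- tumors Pvt1 ran from 14.3 CPM in YZ3 over a median of 19.2 to 25.3 in YZ6, and in MaP-/- tumors from 25.2 CPM in JM779-T1 over a median of 29.6 to 50.4 in JM833-T1. The groups overlapped only between JM779-T1 and YZ6. Pvt1 fell in MaPR172H/- tumors (log2 fold change -0.78, SE 0.20, FDR = 0.0312, edgeR), in the comparison in which Myc rose. The call was kept in 7 of 13 fits that left out 1 tumor and lost without YZ2, YZ3, YZ11, JM663-T2, JM833-T1 or JM833-T2, with log2 fold changes from -0.85 to -0.64 and an FDR of at most 0.0686. It was also lost with the tumors of 1 mouse summed (-0.68, FDR = 0.0882). Pvt1 was at 18.6 to 32.3 CPM in MaPR245W/- tumors and its differences from the other groups did not pass the test.

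Over the 18 tumors Pvt1 and Myc had a Pearson r of -0.41 (permutation p = 0.0935, adjusted 0.28 over 3 relations) and a Spearman rho of -0.60 (permutation p = 0.0102). Without JM1233 and YZ7, the tumors farthest from the median of Myc, r was -0.42 (permutation p = 0.111). Without JM836-T1 and JM779-T1 r was -0.42 (permutation p = 0.106). Its sign was not the same in every group. It was positive, with r = 0.52 in MaPR172H/- tumors (n = 7, exact permutation p = 0.227) and r = 0.61 in MaP-/- tumors (n = 6, exact permutation p = 0.242), and without the 2 MaPR172H/- tumors farthest from the median, YZ7 and YZ6, r was -0.17 (n = 5, exact permutation p = 0.883). In the 5 MaPR245W/- tumors r was -0.48 (exact permutation p = 0.383), negative as over all tumors. No value within a group passed the test, and both values over 5 tumors were added after the data were seen.

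The neighbourhood of each member was examined in the tumor where that member was highest. The value is the log2 ratio of that tumor over the median of the other 17, for genes starting within 1 Mb. To both levels 0.5 CPM was added first, which draws the ratios of genes with low levels, such as Mycn, toward 0. For Myc in YZ7 the ratio was 1.22, and its 5 neighbours lay between -0.21 and 0.14, Pvt1 among them at -0.21. No neighbour of any member exceeded 2. The highest were Cyria at 1.68 near Mycn in JM833-T1, where Mycn was at 1.07, Rbm20 at 1.61 near Mxi1 in YZ7, where Mxi1 was at 0.94, and Gm4864 at 1.57 near Max in JM779-T1, where Max was at 0.40. The medians of the neighbours were between -0.31 and 0.18 for the 7 members. By this measure no member rose in its extreme tumor together with most of the genes around it. DNA copy number was not measured.

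**Figure D3:**
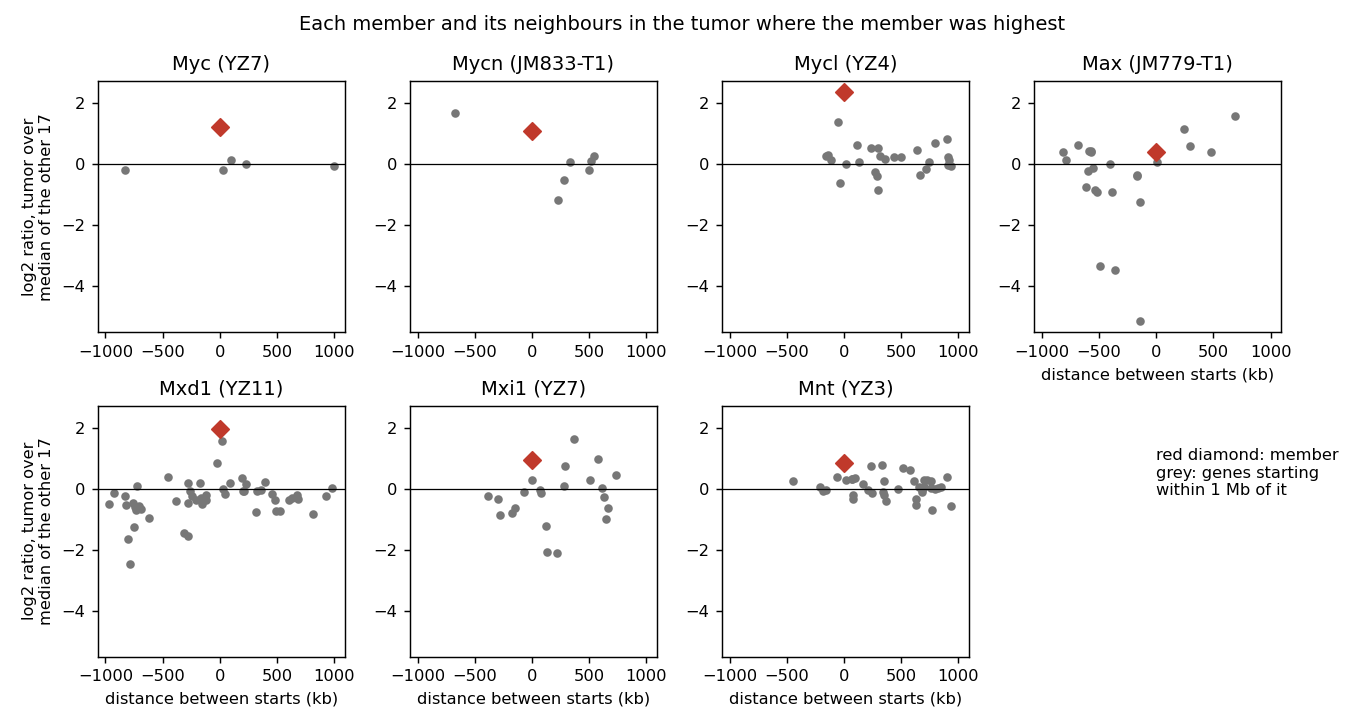
Log2 ratio of CPM in the tumor named above each panel over the median of the other 17 tumors (vertical axis), against the distance in kb between gene starts (horizontal axis). To both levels 0.5 CPM was added. The red diamond is the member and grey points are its neighbours within 1 Mb. Around Myc in YZ7 only 5 neighbours passed the filter, and they lie close to 0 while Myc is at 1.22. Near Mxd1 in YZ11 the neighbour at 1.56 is Gm44292, which overlaps Mxd1.

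Mycl, the family member with the weaker transforming activity, varied the most between tumors of 1 group among the called members. In MaPR172H/- tumors it was lowest at 1.497 CPM in YZ7, had a median of 2.86 and was highest at 12.3 in YZ4, followed by YZ3 at 8.76. In MaPR245W/- tumors it was at 0.371 CPM in JM1564, 0.382 in JM1133, 0.717 in RM0014, 1.07 in JM1233 and 2.72 in JM1126. In MaP-/- tumors it ran from 0.903 in JM836-T1 over a median of 2.06 to 4.35 in JM833-T1. The lowest values rest on few counts, 10 in JM1133 and 12 in JM1564. MaPR172H/- tumors were higher than MaPR245W/- tumors (log2 fold change 2.22, SE 0.64, FDR = 0.0362, edgeR), with overlapping groups. Without YZ4 the log2 fold change was 1.81 and without YZ3 2.03, both past the threshold, and the call was also lost without JM1233 (2.23), JM1564 (2.01), RM0014 (2.13) or JM1133 (2.02), with an FDR of at most 0.0834. The differences of Mycl from MaP-/- tumors were 0.97 for MaPR172H/- (FDR = 0.278, edgeR) and -1.29 for MaPR245W/- tumors (FDR = 0.422, edgeR). In the comparison in which Mycl was called, 6 of 6 tested skeletal muscle markers were lower in MaPR172H/- tumors, with sums of 2.15 to 17.7 CPM against 3.12 to 1060, and Lum, Adgre1 and Itgam were lower too. Of all genes tested there, 6.49% were called as lower. Summed mesenchymal markers were 2610 to 7463 against 3157 to 31330 CPM and summed immune markers 357.5 to 468.8 against 284.9 to 1761. Their part in the difference of Mycl was not tested.

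Mycn, best known from neural tumors, was close to the limit of detection. It had between 1 count, in YZ7, and 55 counts, in JM833-T1, or 0.0440 to 1.70 CPM. YZ7 was thus the tumor with the highest Myc and the lowest Mycn. In MaPR172H/- tumors the median was 0.734 CPM and in MaP-/- tumors 0.611. In MaPR245W/- tumors Mycn was at 0.0927 CPM in JM1564, 0.229 in JM1133, 0.384 in JM1126, 0.418 in JM1233 and 0.545 in RM0014. The log2 fold change of MaPR245W/- against MaP-/- tumors was -1.19 (SE 0.47, FDR = 0.384, edgeR) and that of MaPR172H/- against MaPR245W/- tumors 1.17 (SE 0.57, FDR = 0.210, edgeR), and neither passed the test. The interval of 2 standard errors around the fold of MaPR172H/- over MaP-/- tumors was 0.488 to 2.08.

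Max, the partner all members share, varied least. Over the 18 tumors its highest level was 1.92 times its lowest, against 5.38 times for Myc. In MaPR172H/- tumors it ran from 47.5 CPM in YZ4 over a median of 64.4 to 66.6 in YZ10, and in MaP-/- tumors from 36.0 CPM in JM836-T1 over a median of 46.8 to 69.3 in JM779-T1. The MaPR245W/- tumors had 36.4 CPM in JM1233, 40.9 in RM0014, 49.8 in JM1564, 52.5 in JM1126 and 65.6 in JM1133. All groups overlapped. The log2 fold change was 0.35 for MaPR172H/- against MaP-/- tumors (SE 0.16, FDR = 0.204, edgeR) and 0.33 for MaPR172H/- against MaPR245W/- tumors (SE 0.18, FDR = 0.240, edgeR). For MaPR245W/- against MaP-/- tumors it was -0.009 (SE 0.21, FDR = 0.991, edgeR), with a fold between 0.745 and 1.33 within 2 standard errors.

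Mnt, the most widely expressed repressor of the family, was higher in MaPR172H/- than in MaP-/- tumors, as Myc was. It ran from 18.6 CPM in YZ6 over a median of 24.2 to 33.1 in YZ3, against 13.2 CPM in JM663-T2 over a median of 17.8 to 19.5 in JM836-T1. The groups overlapped only between YZ6 and JM836-T1. The means were 25.2 ± 4.89 CPM (SD, n = 7) and 16.9 ± 2.51 CPM (SD, n = 6), and the log2 fold change was 0.60 (SE 0.17, FDR = 0.0393, edgeR). The size was stable and the call was not. When 1 tumor was left out the log2 fold change was 0.50 to 0.66 and the call was kept only without YZ6, YZ10 or JM779-T1, with an FDR of at most 0.0887. Without JM836-T1 and JM779-T1 it was 0.70, with an FDR of 0.0594. With the tumors of 1 mouse summed, which leaves 4 MaP-/- samples, it was 0.57, with an FDR of 0.114. Mnt in MaPR245W/- tumors was at 11.8 CPM in JM1233, 13.1 in RM0014, 15.6 in JM1133, 16.7 in JM1564 and 24.2 in JM1126. The difference of MaPR172H/- from MaPR245W/- tumors was 0.63 on the log2 scale (SE 0.20, FDR = 0.052, edgeR) and did not pass the test. It passed without YZ6 (0.70) or without JM1126 (0.82).

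Mxd1, a repressor that is known to rise as cells differentiate, was far above the rest in a few tumors. It was at 175.9 CPM in YZ11, 174.9 in JM1126 and 125.8 in JM663-T2, 1 tumor of each genotype, and at 79.7 CPM or less in all others. The medians were 40.3 CPM in MaPR172H/-, 67.8 in MaPR245W/- and 50.5 in MaP-/- tumors, and the lowest level was 21.4 CPM in YZ7. The log2 fold changes were 0.028 (SE 0.50), 0.43 (SE 0.50) and -0.41 (SE 0.53) in the 3 comparisons, none past the test (FDR = 0.978, 0.754 and 0.667, edgeR). Leaving out 1 tumor moved the first of these between -0.54, without YZ11, and 0.39, without JM663-T2. The tumors with high Mxd1 did not share a marker profile. YZ11 had the highest epithelial sum of all 18 tumors, 10840 CPM, and JM1126 the highest mesenchymal sum, 31330 CPM.

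Mxi1 is the repressor whose human gene, MXI1, lies in a region often lost in prostate cancer. It was highest in YZ7 at 117.0 CPM, the tumor with the highest Myc and the lowest Mxd1. The other 6 MaPR172H/- tumors were at 42.7 to 79.2 CPM. In MaPR245W/- tumors Mxi1 was at 52.0 CPM in JM1233, 75.1 in JM1133, 84.6 in RM0014, 89.6 in JM1126 and 98.3 in JM1564, and in MaP-/- tumors it ran from 37.1 CPM in JM833-T2 over a median of 55.7 to 70.8 in JM779-T1. Thus 4 of 5 MaPR245W/- tumors were above all MaP-/- tumors. The log2 fold change was 0.53 (SE 0.22, unadjusted p = 0.0341, FDR = 0.391, edgeR) and did not pass the test. The differences of MaPR172H/- tumors were 0.21 against MaP-/- (SE 0.26) and -0.34 against MaPR245W/- tumors (SE 0.26), and neither passed it.

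The level of Myc per kilobase was divided by the sum of Mxd1, Mxi1 and Mnt, as a partial description of their balance. Mxd3, Mxd4 and Mga, repressive genes of the wider network described below, were left out of this sum. Their median levels over the 18 tumors were 2.74, 8.71 and 21.9 CPM per kilobase, so the ratio covers only part of the repressors. The ratio had a median of 1.80 in MaPR172H/- tumors (1.09 to 3.37), 0.977 in MaPR245W/- tumors (0.765 to 1.52) and 1.098 in MaP-/- tumors (0.658 to 2.45). YZ6 was highest at 3.37 and JM663-T2 lowest at 0.658. Myc over Max per kilobase had medians of 2.51, 2.24 and 1.82 in the same order, and was highest in YZ7 at 4.49 and lowest in JM779-T1 at 1.17. In both ratios the groups overlapped.

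None of the 6 further genes of the network was called in any comparison. Mxd3 and Mxd4 are repressors of the same kind, Mga is a MAX partner that belongs to a repressive complex, and Mlx, Mlxip and Mlxipl form the related branch that responds to glucose. Mga was the most abundant of them per kilobase, with a median of 21.9 CPM against 13.6 for Mlx, 8.82 for Mlxip, 8.71 for Mxd4, 2.74 for Mxd3 and 0.143 for Mlxipl. Their largest differences by p were 0.82 for Mxd3 in MaPR172H/- against MaP-/- tumors (SE 0.40, FDR = 0.225, edgeR), 0.38 for Mxd4 in MaPR245W/- against MaP-/- tumors (SE 0.25, FDR = 0.559) and 0.53 for Mlxip in MaPR172H/- against MaPR245W/- tumors (SE 0.33, FDR = 0.323).

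Cofactors were examined as the proteins through which MYC and its repressors act. In MaPR172H/- against MaP-/- tumors, where 3.67% of all genes were called as higher, 1 of 16 genes rose, with a list median of 0.25. It was Zbtb17 (0.67, SE 0.17, FDR = 0.0255, edgeR), which encodes MIZ1, a partner through which MYC represses genes, and its call was lost without YZ2 (0.63) or JM836-T1 (0.64), and with the tumors of 1 mouse summed (0.61, FDR = 0.0647). None of the 16 passed in MaPR245W/- against MaP-/- tumors. In MaPR172H/- against MaPR245W/- tumors, where 2.91% of all genes were called as higher, 3 rose, with a list median of 0.0995. Among them were Ncor1, a corepressor (0.72, FDR = 0.0221, edgeR, lost without RM0014 at 0.62), and Hcfc1, a chromatin cofactor bound by MYC (0.44, FDR = 0.0497, kept in only 3 of 18 fits that left out 1 tumor, those without YZ11, JM1233 or JM663-T2). None of 8 genes of MYC protein stability passed in any comparison, with medians of -0.0865, 0.025 and -0.08. Their smallest p were those of Usp28 (-0.40, FDR = 0.320), Huwe1 (-0.54, FDR = 0.516) and Cip2a (-0.49, FDR = 0.267).

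In the comparison in which Myc rose, few MYC target genes were called, and in both directions. Of 65 target genes in 3 lists, 1 rose and 3 fell in MaPR172H/- against MaP-/- tumors, where 3.67% of all genes were called as higher and 4.73% as lower. The list had a median of 0.011 on the log2 scale, beside 0.0027 over all genes. Of 32 genes of ribosome biogenesis 1 fell, the nucleolar methyltransferase Fbl (-0.59, FDR = 0.0458), with a list median of 0.039. Of 22 genes of growth and metabolism 2 fell, with a list median of -0.0905. They were the translation initiation helicase Eif4a1 (-0.76, FDR = 0.0386) and Odc1, the first enzyme of polyamine synthesis and a classical MYC target (-2.09, FDR = 0.0414). Of 11 genes of the cell cycle 1 rose, the transcription factor E2f2 (0.61, FDR = 0.0462), with a list median of 0.068. All FDR values are from edgeR. These 4 calls were fragile. Of 13 fits that left out 1 tumor, the call was kept in 1 for E2f2 (without JM663-T2), in 2 for Fbl (without YZ6 or JM833-T1), in 2 for Eif4a1 (without YZ7 or JM833-T1) and in 3 for Odc1 (without JM663-T1, JM833-T1 or JM833-T2). Without JM779-T1 the log2 fold change of Odc1 was -1.22, and the 4 genes had an FDR of at most 0.0968 in these fits. With the tumors of 1 mouse summed the calls of Fbl (FDR = 0.0601) and Eif4a1 (FDR = 0.0505) were lost and those of E2f2 and Odc1 were kept.

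In MaPR245W/- against MaP-/- tumors, no target gene passed the test. Of the 65 genes, 56 had a log2 fold change above 0, and the median was 0.19, beside 0.0195 over all genes, where 11118 of 21452 genes were above 0. The medians were 0.16 for ribosome biogenesis, 0.26 for growth and metabolism and 0.21 for the cell cycle. The smallest p of each list were those of the ribosome assembly factor Nop16 (0.54, FDR = 0.360), the mitochondrial scaffold Phb1 (0.42, FDR = 0.370) and Cks2, a binding partner of cyclin-dependent kinases (0.58, FDR = 0.467). The 65 genes were measured in the same tumors and are not separate observations. Their mean log2(CPM + 0.5) was 5.585 in JM833-T1, 6.053 to 6.44 in the other MaP-/- tumors and 6.015 to 6.596 in MaPR245W/- tumors. The shift of the list as a whole was not tested.

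Between the mutants, 1 target gene rose and 7 fell in MaPR172H/- against MaPR245W/- tumors, where 2.91% of all genes were called as higher and 6.49% as lower. The median was -0.20. In ribosome biogenesis (median -0.17), the nucleolar protein gene Ncl rose (0.85, FDR = 0.0408), and Fbl (-0.75, FDR = 0.0197), Nip7 (-0.92, FDR = 0.0211) and Nop16 (-0.58, FDR = 0.0317) fell. In growth and metabolism (median -0.41), the mitochondrial peroxidase Prdx3 (-1.18, FDR = 0.00486), Eif4a1 (-1.03, FDR = 0.00914) and Ldha, which converts pyruvate to lactate (-0.87, FDR = 0.0490), fell. In the cell cycle list (median -0.19), Cks2 fell (-1.12, FDR = 0.0089). Eif4a1 and Ldha, both with an E-box shown above, have similar copies elsewhere in the mouse genome, between which reads could have been split. Prdx3, Eif4a1 and Cks2 were called in all 18 fits that left out 1 tumor. Nip7 was lost without JM1564 (-0.76) and Fbl without RM0014 (-0.67) or JM1133 (-0.68). Nop16 was called in 12 of the 18 and lost without YZ2, YZ4, YZ10, YZ11, JM1564 or RM0014. Ncl was called in 8, those without YZ4, YZ10, RM0014 or any MaP-/- tumor but JM663-T1, and was 0.63 without YZ7. Ldha was called in 4, those without YZ7, JM1233, JM833-T1 or JM779-T1, and was lost with the tumors of 1 mouse summed (FDR = 0.0545).

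**Figure D4:**
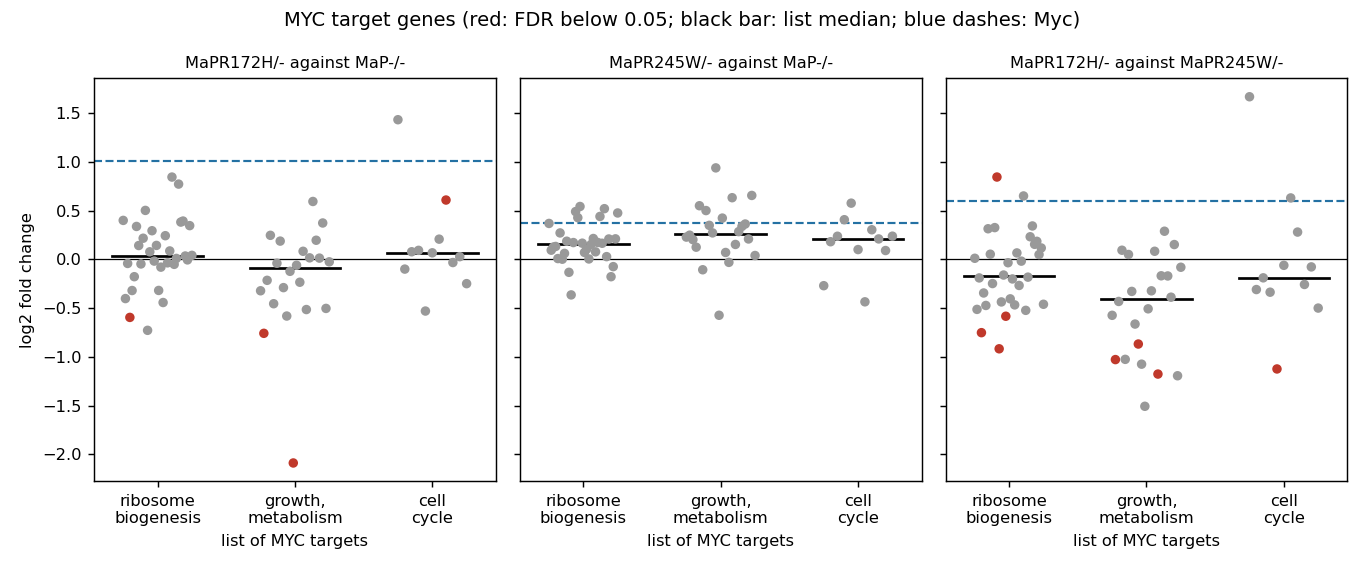
Log2 fold change (vertical axis) of each of 65 MYC target genes in 3 lists (horizontal axis), in 3 comparisons. Points are genes, red at an FDR below 0.05 in edgeR, black bars are list medians and the blue dashes mark Myc. In MaPR172H/- against MaP-/- tumors Myc is at 1.01 and the list medians are between -0.0905 and 0.068.

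None of 7 genes that MYC represses passed in any comparison, with medians of -0.0285, 0.024 and -0.12. The smallest p were those of the cell cycle inhibitor Cdkn2b against MaP-/- tumors, with 1.03 in MaPR172H/- (FDR = 0.0841) and 1.05 in MaPR245W/- tumors (FDR = 0.384), and of Ndrg2 between the mutants (1.87, FDR = 0.322). Of 15 proliferation genes none passed against MaP-/- tumors, with medians of 0.089 and 0.18. Their smallest p were those of Ccnb1 in MaPR172H/- (-0.96, FDR = 0.0549) and of the spindle motor Kif11 in MaPR245W/- tumors (0.66, FDR = 0.467). Between the mutants Ccnb1, the mitotic cyclin B1, fell in MaPR172H/- tumors (-1.17, FDR = 0.0167, edgeR), and the list median was -0.17. Of all genes tested there, 6.49% were called as lower.

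Whether tumors with more Myc had more of its targets was examined with a score, the mean of log2(CPM + 0.5) over the 65 target genes. Over the 18 tumors it had a Pearson r of 0.27 with Myc (permutation p = 0.279, adjusted 0.419 over 3 relations) and a Spearman rho of 0.18 (permutation p = 0.469). Without JM1233 and YZ7 r was 0.082 (permutation p = 0.76). Without JM836-T1 and JM779-T1 r was 0.38 (permutation p = 0.144). With each group centred on its own mean r was 0.53 (permutation p = 0.0244, adjusted 0.0732). Within MaPR172H/- tumors r was 0.96 (n = 7, exact permutation p = 0.00198, adjusted 0.0119 over 6 relations within groups) and rho 0.89 (exact permutation p = 0.0123). There the score rose from 5.75 in YZ4, with the lowest Myc, to 6.34 in YZ6 and 6.60 in YZ7. Without YZ7 and YZ6 together, r was 0.63 (n = 5, exact permutation p = 0.183) and the relation did not pass. Leaving out only 1 of these tumors was not examined. Within MaP-/- tumors r was 0.096 (n = 6, exact permutation p = 0.824) and rho -0.26, and the difference between the groups was not tested. In the 5 MaPR245W/- tumors r was 0.37 (exact permutation p = 0.575) and rho 0.50.

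**Figure D5:**
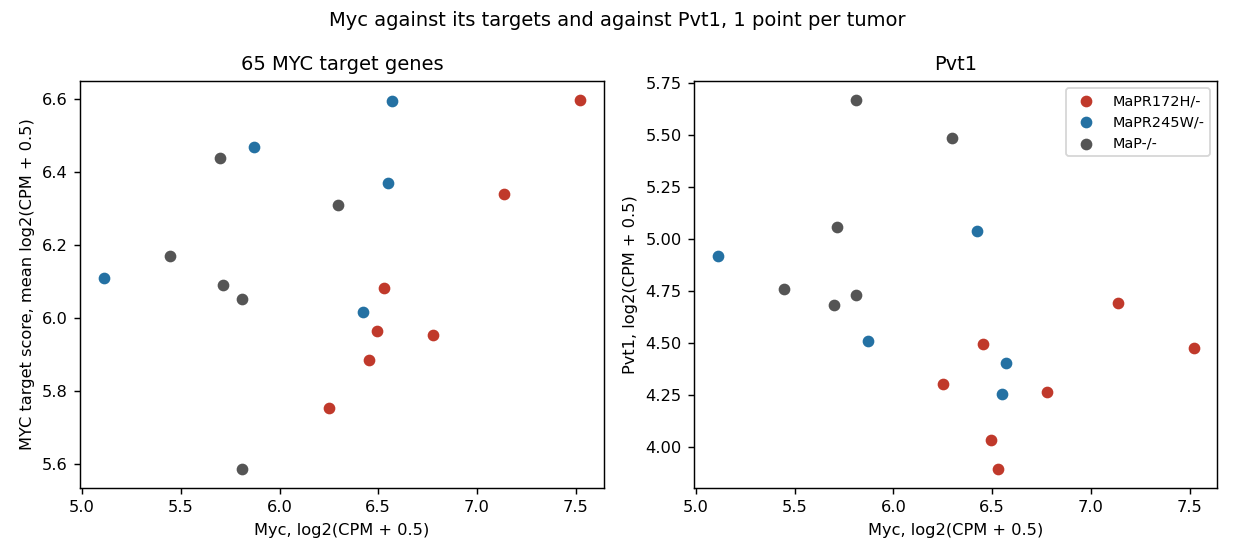
Left, score of 65 MYC target genes (vertical axis, mean log2(CPM + 0.5)) against Myc (horizontal axis, log2(CPM + 0.5)); right, Pvt1 against Myc on the same scale. Each point is 1 tumor, colored by genotype. The score rises with Myc among the 7 MaPR172H/- tumors (r = 0.96), where YZ6 and YZ7 lie at the top right, and no such slope is seen over all 18 tumors (r = 0.27).

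A score of 15 proliferation genes had an r of 0.17 with Myc over the 18 tumors (permutation p = 0.491, adjusted 0.491) and a rho of 0.25 (permutation p = 0.312). Without JM1233 and YZ7 r was 0.14 (permutation p = 0.613). Without JM836-T1 and JM779-T1 r was 0.27 (permutation p = 0.298). Within groups r was 0.66 in MaPR172H/- (n = 7, exact permutation p = 0.112), 0.15 in MaP-/- tumors (n = 6, exact permutation p = 0.762) and -0.071 in the 5 MaPR245W/- tumors (exact permutation p = 0.942).

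The genes whose levels followed each member most closely were ranked by Spearman correlation over the 18 tumors, as a description, since the tumors share libraries, groups and platform. For Myc they were Nosip (0.91), Naa38 (0.91) and the small nuclear RNA gene Gm25189 (0.89). For Mycn they were Gm47992 (0.88), Pgr, the progesterone receptor (0.87), and Gm20100 (0.85), and for Mycl Ccl5, a chemokine of T cells (0.88), Crtac1 (0.88) and Gm46781 (0.86). Cebpd (0.87), Gm57129 (0.83) and Fbxl14 (0.82) followed Max. Mxd1 was followed by Gm44292 (0.94), Nckap1 (0.93) and Mindy3 (0.92). Gm44292 overlaps Mxd1 on the same strand, so that their reads may not be separable. Ndufa7 (0.91), Ube2j2 (0.87) and Usp5 (0.84) followed Mxi1, and Mink1 (0.92), Gm57388 (0.90) and Safb (0.90) followed Mnt. Mink1 starts 4268058 bases from Mnt on chromosome 11.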

How the data were processed

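For 18 tumors the authors removed ribosomal RNA, made stranded libraries, checked the reads with FastQC 0.11.9 and mapped them to GRCm39 with STAR 2.7.10b. Genes of GENCODE M34 were quantified by RSEM 1.3.3. What the authors deposited are counts, whole numbers for each gene that were not normalized. RSEM estimates need not be whole, and whether they were rounded was not given in the sources used here. Identifiers were matched to GENCODE M39 of the same build (56620 of 57126), which gave names, positions and exon lengths (union of exons, used for levels per kilobase). All 7 members passed the filter.

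Separate fits compared MaPR172H/- and MaPR245W/- with MaP-/- tumors, and the mutants were compared with each other in a fit of all 18 tumors, with edgeR 4.0.16 (R 4.3.3; TMM, filterByExpr, quasi-likelihood test). A gene was called at a Benjamini-Hochberg FDR below 0.05 over all genes tested. Where 2 tumors came from 1 mouse they were treated as samples. Labels do not say that tumors of different mice were handled apart, and p-values measure the spread between these tumors. Correlations used log2(CPM + 0.5) and permutation tests (exact within groups, otherwise 100000 resamples), all two-sided. The members and lists were chosen with earlier results of these data known. Named were the members, 6 network genes, Pvt1, per list and comparison the called genes (at most 6) or the gene with the smallest p, and per member the 3 genes most correlated with it. Marker lists were named by their called genes only, and 1 gene of the cofactor list is not reported here. Alternatives were DESeq2 1.42.0, its size factors, no filter, at least 10 counts in every tumor, tumors of 1 mouse summed, other samples in the fit, an absolute log2 fold change of at least 1, and each tumor left out. Leaving out JM836-T1 and JM779-T1, the alternatives for called list genes and Pvt1, correlations within MaPR245W/- tumors, and leaving out YZ7 and YZ6 within MaPR172H/- tumors were added after seeing the data. Tests were tested on simulated data. Python 3.11.15 was used for the rest.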

Additional observations from a re-analysis of the deposited data

Results flagged for a closer look

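Single tumors far from their group (Dixon's test at the 95% level, on CPM without a log) were found in 7 of 42 groups of values, over 14 genes and 3 genotypes. A rate of about 1 in 20 by chance holds only for normally distributed values. CPM can be skewed and the groups of values share tumors, so an excess over chance was not tested. Among the members these were Myc in JM833-T2 at 78.2 CPM and Mycn in JM833-T1 at 1.70 CPM, each the highest of the MaP-/- tumors and both from mouse JM833, and Mxd1 in YZ11 at 175.9 CPM, the highest of the MaPR172H/- tumors. In the wider network Mga was lowest of the MaPR172H/- tumors in YZ4 at 235.3 CPM. Mlxip was highest in YZ11 at 163.1 CPM among MaPR172H/- and in JM1133 at 101.8 CPM among MaPR245W/- tumors. Mlxipl was highest in JM833-T1 at 17.5 CPM among MaP-/- tumors.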

How the results depend on the processing

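In MaPR172H/- against MaP-/- tumors, 1760 genes were called, and 1051 with an absolute log2 fold change of at least 1, 3432 with DESeq2, 1126 with tumors of 1 mouse summed, 1074 without JM836-T1 and JM779-T1 and 1067 to 1866 with 1 tumor left out (1067 without JM663-T2). Of these, 2 members were called, and 1 with the fold change threshold, without a filter, with tumors of 1 mouse summed or in 1 fit of all 18 tumors, 0 without JM836-T1 and JM779-T1 and 1 to 2 with 1 tumor left out. Myc was called in 20 of 21 settings and Mnt in 7. In MaPR245W/- against MaP-/- tumors 0 genes were called, and 424 with DESeq2, 2 in 1 fit of all tumors, 5 without JM836-T1 and JM779-T1 and 0 to 3 with 1 tumor left out. In MaPR172H/- against MaPR245W/- tumors 2114 genes were called, and 1392 with the fold change threshold, 3699 with DESeq2 and 1401 with at least 10 counts in every tumor, a filter that removed Mycn. There 1 member was called, and 2 with DESeq2 or at least 10 counts, 0 without a filter or in a fit of the 2 groups alone and 0 to 2 with 1 tumor left out. Mycl was called in 18 of 26 settings. The correlation of Myc with its target score was 0.53 with groups centred and 0.96 within MaPR172H/- tumors. That with Pvt1 turned to 0.15 with groups centred, 0.52 within MaPR172H/- and 0.61 within MaP-/- tumors, and that with the proliferation score to -0.071 within the 5 MaPR245W/- tumors. Fold changes near 0 that did not pass the test changed sign. For MaPR172H/- against MaP-/- these were Mycn (-0.017 in 1 fit of all tumors, -0.16 without JM836-T1 and JM779-T1, -0.28 to 0.41 with 1 tumor left out), Mxd1 (-0.0024 with tumors of 1 mouse summed, -0.54 to 0.39) and Mxi1 (-0.009 to 0.30). For MaPR245W/- against MaP-/- they were Max (0.0051 with DESeq2's size factors, 0.026 with DESeq2, 0.014 without a filter, 0.050 without JM836-T1 and JM779-T1, -0.13 to 0.11), Mxd1 (-0.092 to 0.79) and Mnt (0.038 without JM836-T1 and JM779-T1, -0.25 to 0.044). For MaPR172H/- against MaPR245W/- it was Mxd1 (-0.97 to 0.088). The causes of these changes were not tested. No paired analysis was possible because the labels give no replicate numbers that groups share. Among the members the lowest counts were those of Mycn (1) and Mycl (10).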
